A study of Mus musculus with 17 samples.

Results

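Colon RNA of CD4cre mice, whose T cells lack PPARγ, was compared between day 7 and day 2 of a challenge with dextran sodium sulfate (DSS). The samples were taken by their titles, which gave 3 CD4cre samples on day 7 and 3 on day 2 out of 17 in the series, and 45037 of the 45101 probe sets of the array were used, all but the array's own control probe sets. CD4cre mice were PPARγ fl/fl; CD4Cre+ on a C57BL/6J background. The Cre transgene was under the CD4 promoter, which is active in thymocytes before the CD4 and CD8 lineages part, so neither lineage is spared. The mice of both days drank 2.5% DSS, so no untreated group enters this comparison. WT mice on day 7 (2 samples) and day 2 (3 samples) of the same challenge are given beside it, and CD4cre mice before DSS (day 0, 3 samples) are given as a baseline. The paper sets its WT mice, which are Cre-, beside the PPARγ fl/fl; CD4Cre+ mice and gives both as C57BL/6J. The titles name the tissue as colon and the paper as colonic mucosa, in which T cells are a small part. The number of mice behind each array is not given in the sources used here, so the p-values measure only the spread between these samples. In bulk tissue, fewer cells of a type and less RNA per cell cannot be told apart.

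DSS damages the colonic epithelium, so that bacteria of the lumen reach the tissue beneath it. Epithelial cells, fibroblasts and resident macrophages respond through NF-kappaB with IL-1β, IL-6 and chemokines, and neutrophils and monocytes enter from the blood. IL-6 and its relatives signal through the shared receptor chain gp130 to the transcription factor STAT3, which induces acute phase proteins and its own inhibitor SOCS3. PPARγ is a nuclear receptor that restrains NF-kappaB, and in T cells it has been linked to regulatory T cell function.

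Levels are log2 values, and a level at or under 3.41 was taken as background. The genes of 85 probe sets belong to organs other than colon, and 95% of the values of these probe sets in the 17 samples did not exceed that level. Pparg itself, the targeted gene, had levels of 10.60, 8.28 and 10.42 on day 7, against 9.83, 10.11 and 10.40 on day 2. Replicate 2 of day 7 lay below all the others, the groups overlapped, and the difference was -0.35 (SE 0.53, adjusted p = 0.844). In 1 of 17 other settings, with the Hox position score described below as a covariate, Pparg was called lower on day 7 (adjusted p = 0.0409). Since most Pparg RNA in colon comes from cells other than T cells, these values check neither the labels nor the deletion.

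The tissue carried its label. The 12 defining markers of colon epithelium averaged 12.93 to 13.59 per sample on day 7 and 13.36 to 13.63 on day 2, with Vil1, which encodes the brush border protein villin, at 12.55, 11.62 and 12.04 on day 7 and 11.91, 12.23 and 12.40 on day 2. Smooth muscle genes were high too, averaging 11.52 to 12.06 per sample on day 7 and 12.11 to 12.70 on day 2, so the pieces were not epithelium alone. Some samples stood apart. Replicate 1 of day 2 carried pancreatic acinar transcripts at a median level of 12.51, as did replicate 2 of CD4cre day 0 and replicate 2 of WT day 2, while the other samples were at or under 2.68. Replicate 2 of day 7 correlated with the other day 7 replicates at 0.980 and 0.978, against 0.992 between those replicates, and its macrophage markers averaged 9.98, against 8.86 and 8.74 in them. A Hox position score, in which higher values stand for a more distal piece of gut, was -1.01, 0.21 and -1.22 on day 7, against 0.52, 0.04 and -0.31 on day 2. The parts that the pancreatic transcripts, the position of the piece and the spread of the samples had in single genes were not tested beyond the refits given below.

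**Figure D1:**
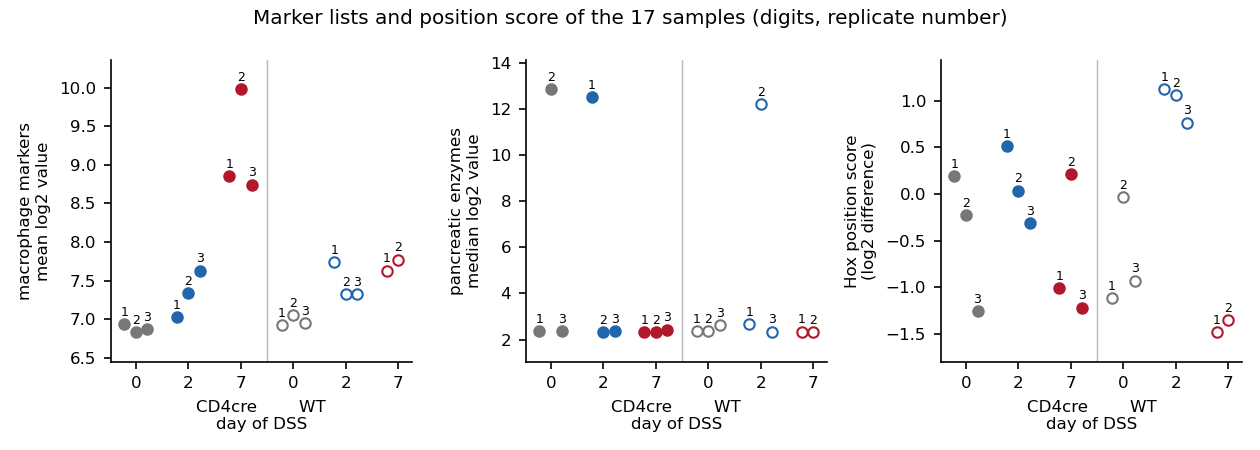
Mean level of monocyte and macrophage markers, median level of pancreatic acinar enzymes (both log2) and Hox position score (log2 difference) with 1 point for each of the 17 samples, grouped by day and genotype. The CD4cre day 7 samples hold the highest macrophage means (8.74 to 9.98), and 3 samples of the other groups, 1 of them CD4cre day 2, sit above 12 in the pancreatic median.

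Between day 7 and day 2, 2439 probe sets differed in CD4cre colon at an adjusted p under 0.05 (limma, two-sided, Benjamini-Hochberg), 1121 of them higher and 1318 lower on day 7, which is 5.42% of those tested. The calls fell on 1776 genes. Of the rises, 208 were at least 2 on the log2 scale, and of the falls 59 were at most -2, so that the large changes were mostly rises. At an unadjusted p under 0.05 there were 8519 probe sets. The day 7 and day 2 values did not overlap in 2410 of the called probe sets, and in 17.6% of all probe sets. The counts moved with the samples used. The count was 1054 without day 2 replicate 2 and 4455 without day 7 replicate 3, and 877 probe sets were called whichever sample of the 6 was left out, 433 of them higher and 444 lower. Without the 3 samples with pancreatic transcripts the count was 1358. A fit limited to the 6 samples compared, which estimates each gene's spread from them alone, called 10 probe sets, 7 of them among the 2439. The balance of rises and falls turned with the setting. Rises were 45.96% of the calls as reported, 54% of 2374 calls after cyclic loess between arrays, 55.38% without the 3 samples with pancreatic transcripts, 51.97% without day 2 replicate 1 and 53.53% without day 7 replicate 1. When each array was centred on its median, 29.67% of 3852 calls were higher, although the median change over all genes moved only to -0.06 from the reported -0.01.

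**Figure D2:**
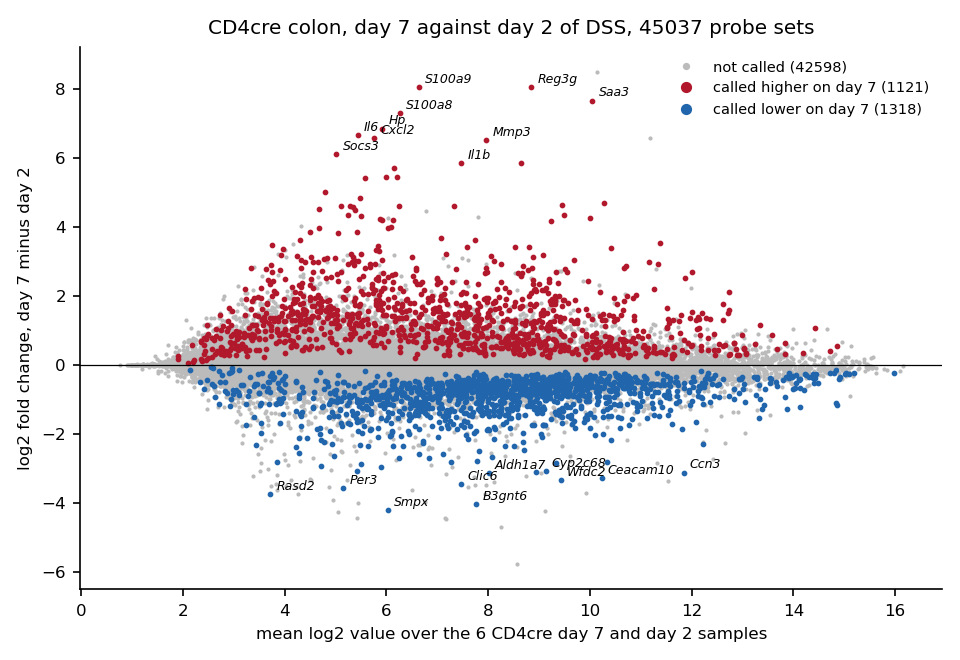
Log2 difference, day 7 minus day 2, in CD4cre colon against the mean log2 level for each of the 45037 probe sets. Red points are the 1121 called higher, blue points the 1318 called lower and grey points the 42598 not called, and the largest differences are rises.

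Il6, Il1b and several genes of their families rose. Il6 encodes the cytokine that starts the STAT3 response. Its levels were 8.42, 9.85 and 8.01 on day 7, against 2.10, 2.11 and 2.14 on day 2, where all samples were at background. All 3 day 7 samples stood above every day 2 sample, the day 7 mean was at least 40.9-fold above the background level, and the fitted difference was 6.64 (SE 0.32, adjusted p = 5.55e-06). In CD4cre mice before DSS it was at background too, at 2.14, 2.14 and 2.14. Il1b, the gene of IL-1β, was at 9.36, 12.69 and 9.12 on day 7 and averaged 4.55 on day 2. Its groups did not overlap, replicate 2 of day 7 was the highest, and the difference was 5.85 (SE 0.76, adjusted p = 0.00186). The relative Il11, a gp130 cytokine made by stromal cells, had 6.92, 10.55 and 5.42 on day 7 and 2.98, 3.03 and 3.13 on day 2, all of the day 2 samples at background. It rose at least 18.7-fold (adjusted p = 0.0127), a call that was lost without the 3 samples with pancreatic transcripts (adjusted p = 0.0743). Il33, an alarmin of epithelial and stromal nuclei, rose by 3.12 (SE 0.49, adjusted p = 0.00434).

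Of the receptors, Il1r1, which binds IL-1, rose by 1.92 (SE 0.24, adjusted p = 0.00166) and Osmr, the oncostatin M receptor chain that pairs with gp130, by 2.21 (SE 0.38, adjusted p = 0.00731). The IL-6 receptor Il6ra was 1.46 higher (adjusted p = 0.0154), and this call was lost without day 2 replicate 2 (adjusted p = 0.0694). For Il6st, the gp130 gene, the difference was 1.07 (SE 0.31, adjusted p = 0.0675), which missed the threshold. The IL-1 and IL-6 family list had 18 measured members, of which 8 were higher and 0 lower with a median difference of 1.45, against 3.06% higher and 4.27% lower over the 18193 genes and a median of -0.01. Without day 7 replicate 2 the list had 9 higher, 1 lower and a median of 0.91. Tnf, which encodes the cytokine TNF, differed by 1.45 (SE 0.71, adjusted p = 0.3), and the other cytokine list, which holds the T cell products Ifng and Il17a, had 0 of 18 members called by limma, 1 with an unadjusted p under 0.05 and 12 at background on both days. Il10, an anti-inflammatory cytokine, was at background in all CD4cre samples of the 2 days, with 2.11, 2.13 and 2.11 on day 7 and 2.11, 2.12 and 2.14 on day 2.

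STAT3 target genes rose too. Socs3, which encodes the feedback inhibitor of gp130 signalling, was measured by 3 probe sets, all called higher. A dim one read 7.58, 9.71 and 6.90 on day 7 and 2.01, 1.94 and 1.96 on day 2, where it was at background. It rose at least 25.2-fold, with a fitted difference of 6.10 (SE 0.52, adjusted p = 0.000304), and a bright one rose by 4.69 (SE 0.57, adjusted p = 0.00144). Stat3 itself rose by 1.43 (SE 0.19, adjusted p = 0.002). The transcription factors Cebpb and Cebpd, which act on acute phase genes, rose by 2.65 (adjusted p = 0.00297) and 2.80 (adjusted p = 0.00314), Junb, a subunit of AP-1, by 2.44 (adjusted p = 0.00323), and the kinase Pim1 by 1.91 (adjusted p = 0.00332). Of the 27 IL-6 and STAT3 response genes 14 were higher, 0 were lower and the median difference was 1.43. When 1 of the 6 samples was left out, 12 to 15 were called. Some members, such as Hp, Saa3, Lrg1 and Lcn2, are in the acute phase list as well.

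The promoters of 3 of these responding genes are shown as the stretches that NF-kappaB, AP-1 and STAT factors are known to read, next to Per3, the gene of the clock loop described below. Each is the 300 bases from 250 before to 50 after the gene's start, from RefSeq on build GRCm38.p6, read on the gene's own strand. Capitals mark matches on either strand to TTCNNNGAA (STAT), GGG, any 2 bases and TTTCC (kappaB), TGANTCA (AP-1), CACGTG (E-box) or TTANGTAA (D-box). Il6 lies at chr5:30012864-30013163, plus strand, Socs3 at chr11:117969317-117969616, minus strand, Cxcl1 at chr5:90890995-90891294, plus strand and Per3 at chr4:151044616-151044915, minus strand.
Il6: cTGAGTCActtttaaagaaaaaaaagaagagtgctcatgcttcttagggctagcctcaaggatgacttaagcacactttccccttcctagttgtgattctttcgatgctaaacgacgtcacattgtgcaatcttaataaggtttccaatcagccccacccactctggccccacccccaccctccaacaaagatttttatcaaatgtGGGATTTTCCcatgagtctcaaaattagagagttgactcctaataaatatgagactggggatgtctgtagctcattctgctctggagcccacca
Socs3: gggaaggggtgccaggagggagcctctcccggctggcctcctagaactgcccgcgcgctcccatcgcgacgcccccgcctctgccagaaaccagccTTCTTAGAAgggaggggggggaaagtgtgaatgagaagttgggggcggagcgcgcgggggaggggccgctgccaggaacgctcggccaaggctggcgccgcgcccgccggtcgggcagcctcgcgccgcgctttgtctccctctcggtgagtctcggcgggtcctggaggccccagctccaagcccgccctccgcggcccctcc
Cxcl1: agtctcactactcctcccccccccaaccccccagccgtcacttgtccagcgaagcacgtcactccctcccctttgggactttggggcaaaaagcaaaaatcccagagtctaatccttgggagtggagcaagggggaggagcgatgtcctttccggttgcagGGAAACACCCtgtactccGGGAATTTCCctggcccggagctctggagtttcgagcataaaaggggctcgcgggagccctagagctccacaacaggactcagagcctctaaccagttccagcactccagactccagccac
Per3: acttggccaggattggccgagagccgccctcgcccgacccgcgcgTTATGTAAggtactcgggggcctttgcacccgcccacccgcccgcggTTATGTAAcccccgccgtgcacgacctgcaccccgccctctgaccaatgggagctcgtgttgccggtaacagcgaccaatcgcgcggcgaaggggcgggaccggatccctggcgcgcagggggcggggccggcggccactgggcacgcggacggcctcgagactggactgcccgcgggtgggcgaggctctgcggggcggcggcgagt
The Il6 window held a kappaB match, GGGATTTTCC, at bases -44 to -35 from the start and an AP-1 match, TGAGTCA, at -249 to -243. The Socs3 window held a STAT match, TTCTTAGAA, at -154 to -146. The Cxcl1 window held kappaB matches at -89 to -80 and -71 to -62, and the Per3 window held TTATGTAA, a D-box, at -205 to -198 and again at -158 to -151. Over all 32851 promoter windows, 8.3% held the STAT letters, 1.63% the kappaB letters, 7.81% AP-1, 7.15% the E-box and 2.32% the D-box. A match describes the letters, and binding was not measured.

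Acute phase and antimicrobial genes showed the largest rises. S100a9 and S100a8 encode the subunits of calprotectin, a zinc-binding protein of neutrophils and inflamed epithelium. S100a9 was at 10.12, 12.32 and 9.54 on day 7 and at 2.59, 2.60 and 2.65 on day 2. S100a8 was at 9.36, 11.42 and 8.97 on day 7 and at 2.63, 2.57 and 2.70 on day 2. The day 2 samples were all at background and replicate 2 of day 7 was the highest for each, with rises of at least 153-fold for S100a9 (adjusted p = 1.86e-05) and at least 91.1-fold for S100a8 (adjusted p = 3.85e-05). Hp, the gene of the haemoglobin scavenger haptoglobin, had 8.04, 10.20 and 9.78 on day 7 and 2.20, 2.42 and 2.89 on day 2. Replicate 2 of day 7 was again the highest, and it rose at least 61.1-fold (adjusted p = 3.45e-05). Saa3, a serum amyloid A of macrophages and epithelium, was at 13.90, 14.95 and 12.77 on day 7 and 4.73, 6.25 and 7.69 on day 2. Here the samples of day 2 were themselves spread, and the difference was 7.65 (SE 1.09, adjusted p = 0.00297). Lrg1 and Serpina3n, secreted acute phase glycoproteins, rose by 4.18 (adjusted p = 6.81e-05) and 4.33 (adjusted p = 0.000642). Lcn2, which withholds iron from bacteria, rose by 4.19 (SE 0.80, adjusted p = 0.0118), a call lost without the 3 samples with pancreatic transcripts (adjusted p = 0.0672).

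Of the 22 measured acute phase and antimicrobial genes, 9 were higher, 0 lower and the median difference was 1.15. The C-type lectins Reg3g and Reg3b, which kill bacteria in the mucus, had the widest spread. Reg3g was at 15.03, 9.70 and 13.86 on day 7, against 2.55, 4.52 and 7.42 on day 2, where 1 of the 3 samples was at background. The groups did not overlap and the difference was 8.04 (SE 1.97, adjusted p = 0.0363), but the call was lost without day 2 replicate 1 (adjusted p = 0.1), day 2 replicate 2 (adjusted p = 0.113), day 7 replicate 1 (adjusted p = 0.115) and day 7 replicate 3 (adjusted p = 0.0629). Reg3b had 15.06, 13.46 and 14.87 on day 7 and 6.24, 7.75 and 9.68 on day 2, and its difference of 6.57 (SE 2.23) had an adjusted p of 0.117. In WT colon the day 7 minus day 2 differences of Reg3g and Reg3b were 9.44 and 8.09 (adjusted p = 0.124 and 0.251).

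**Figure D3:**
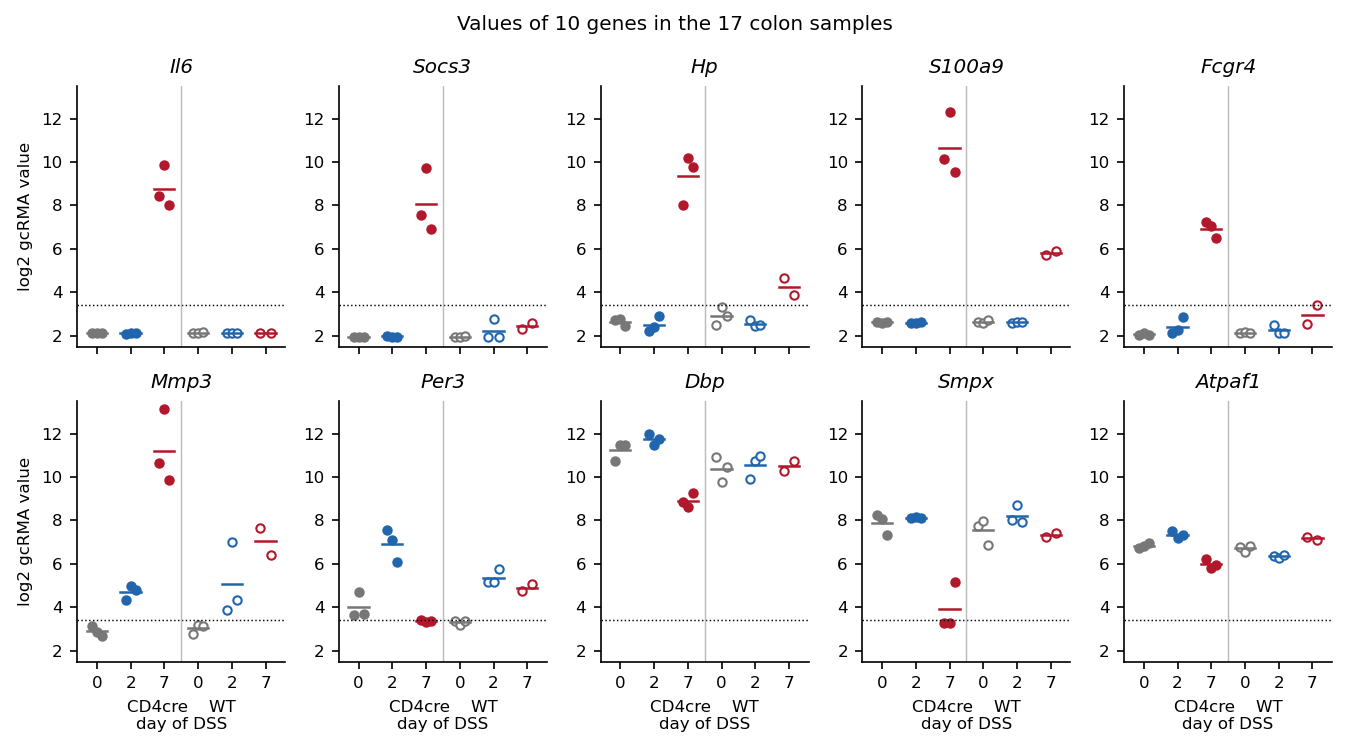
Log2 level of 10 genes by day of DSS challenge (0, 2 or 7) in each CD4cre sample (filled points) and WT sample (open points), with short lines at the group means and a dotted line at the background level. Il6, Socs3, Hp, S100a9, Fcgr4 and Mmp3 stand high in the CD4cre samples of day 7, and Per3, Dbp, Smpx and Atpaf1 stand low in them.

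Chemokines that draw neutrophils and monocytes rose. Cxcl2 had 7.49, 11.97 and 7.66 on day 7 and 2.46, 2.47 and 2.50 on day 2. It was at background in every day 2 sample and rose at least 49.7-fold (adjusted p = 0.00184). Cxcl1 was at 8.22, 10.92 and 7.67 on day 7 and at 3.38, 3.49 and 3.62 on day 2. All 3 day 7 samples exceeded those of day 2, by 5.44 (SE 0.74, adjusted p = 0.00228), and a second probe set that was at background on day 2 rose at least 48.5-fold (adjusted p = 0.000422). Cxcl1 and Cxcl2 act on the neutrophil receptor CXCR2. Cxcl10, which draws T cells and monocytes and is induced by interferon, rose by 3.60 (SE 0.46, adjusted p = 0.00177). Ccl2, the main ligand of the monocyte receptor CCR2, was at 7.06, 10.25 and 6.65 on day 7 and 3.47, 3.89 and 3.90 on day 2. Replicate 2 of day 7 was far the highest, the groups did not overlap, and the difference was 4.23 (SE 0.68, adjusted p = 0.00502). Ccl8, another CC chemokine, rose by 2.86 (SE 0.50, adjusted p = 0.00792), and Ccr2, the receptor itself, by 2.82 (SE 0.51, adjusted p = 0.00947).

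Of 16 CXC chemokines 6 were higher and 0 lower, with a median of 1.19, and of 16 CC chemokines 5 were higher and 0 lower, with a median of 1.27. Without day 2 replicate 2 the counts were 3 and 3, without day 2 replicate 1 the CC count was 3, and without day 7 replicate 2 the CC median was 0.34. Without the 3 samples with pancreatic transcripts the CC count was 2.

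The leukocyte extravasation markers are 7 genes that the study chose on these samples, so their direction is not independent evidence. Of them 4 were higher, 0 lower, and the median was 1.73. Itgb2, the beta chain of the leukocyte integrins LFA-1 and Mac-1, was at 8.09, 9.39 and 7.99 on day 7 and 6.13, 6.45 and 6.75 on day 2. Vcam1, the endothelial ligand of the integrin VLA-4, was at 9.80, 10.96 and 10.13 on day 7 and 8.18, 8.73 and 8.92 on day 2. Neither gene's groups overlapped, replicate 2 of day 7 was the highest for each, and the rises were 2.05 (SE 0.32, adjusted p = 0.00451) for Itgb2 and 1.69 (SE 0.29, adjusted p = 0.00662) for Vcam1. Icam1, the endothelial ligand of LFA-1, was 1.78 higher (adjusted p = 0.0367), a call lost without day 2 replicate 1 (adjusted p = 0.0788), day 2 replicate 2 (adjusted p = 0.118), day 2 replicate 3 (adjusted p = 0.0756), day 7 replicate 1 (adjusted p = 0.051) and day 7 replicate 2 (adjusted p = 0.0693). Selp, which encodes P-selectin, was at background in all day 2 samples and at 3.82, 8.16 and 5.47 on day 7, at least 5.32-fold higher (adjusted p = 0.0308), and this call was lost without day 2 replicate 1 (adjusted p = 0.064), day 2 replicate 2 (adjusted p = 0.0907) and day 2 replicate 3 (adjusted p = 0.0805). Madcam1, the address of gut-homing lymphocytes, Itgax, the CD11c chain, and Itgav, the alpha V chain, had differences of 1.73, 1.51 and 0.96 and adjusted p of 0.0872, 0.071 and 0.0687. The list's count was 2 without any of the 3 day 2 samples in turn or without the 3 samples with pancreatic transcripts, and 7 without day 7 replicate 3.

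Of 22 measured monocyte and macrophage markers 18 were higher and 0 lower, and the median difference was 1.66. Their mean level per sample was 8.74 to 9.98 on day 7 and 7.03 to 7.63 on day 2. The count was 10 without day 2 replicate 2 and 7 without the 3 samples with pancreatic transcripts. Fcgr4, an activating Fc receptor of monocytes and neutrophils, had 7.22, 7.07 and 6.50 on day 7 and 2.13, 2.28 and 2.85 on day 2. It was at background in all day 2 samples, its day 7 values lay close together, and it rose at least 11.5-fold (adjusted p = 9.32e-06). Fcgr1, the high-affinity receptor for IgG, rose by 2.81 (SE 0.34, adjusted p = 0.00136), Ms4a6d, a membrane protein of macrophages, by 2.86 (SE 0.45, adjusted p = 0.00448), and Cd163, the haptoglobin-haemoglobin receptor, by 2.57 (SE 0.33, adjusted p = 0.00166). Csf1r, the receptor for the macrophage growth factor CSF1, was at 10.51, 11.36 and 10.79 on day 7 and 9.31, 9.62 and 9.85 on day 2. Its groups did not overlap and it rose by 1.30 (SE 0.21, adjusted p = 0.00504). The F4/80 gene Adgre1 differed by 0.90 (SE 0.28, adjusted p = 0.0827). Chil3, a chitinase-like protein of activated macrophages, was at background on day 2 and rose at least 14.9-fold (adjusted p = 0.00161).

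Complement genes moved with these markers. Of 15 measured, 7 were higher and 0 lower, with a median of 0.92. C1qa and C1qc, chains of C1q made mainly by macrophages, rose by 1.75 (adjusted p = 0.00146) and 1.69 (adjusted p = 0.00779), and the protease gene C1ra by 1.99 (adjusted p = 0.00121). The count was 4 without day 2 replicate 1, 3 without day 2 replicate 2 and 4 without the 3 samples with pancreatic transcripts. Of the sensors, Myd88, the adaptor of Toll-like and IL-1 receptors, rose by 1.04 (SE 0.12, adjusted p = 0.00114), and Sting1, the sensor of cyclic dinucleotides, by 2.91 (SE 0.30, adjusted p = 0.000665), while only 2 of 22 genes of the Toll-like receptor and NF-kappaB list were called, 1 without day 2 replicate 1, day 2 replicate 2 or day 7 replicate 2 and 6 without day 7 replicate 3. Among interferon-stimulated genes 3 of 22 were higher, with a median of 0.79, and that count was 0 without day 2 replicate 1, day 2 replicate 2, day 7 replicate 1 or the 3 samples with pancreatic transcripts. Ifi209, another interferon-inducible gene, rose by 2.92 (SE 0.51, adjusted p = 0.00783).

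Neutrophil markers were called for 4 of 16 genes, all higher, and 7 were at background on both days, among them Mpo, the myeloperoxidase gene, at 2.11, 2.12 and 2.11 on day 7 and 2.09, 2.10 and 2.13 on day 2. Of the 4 called, 3 (Lcn2, S100a8 and S100a9) are in the acute phase list as well, so the 2 counts are not separate. The mean level of the neutrophil list was 3.89 to 5.54 on day 7 and 2.77 to 2.88 on day 2. The count of called markers was 7 without day 7 replicate 3 and 2 without the 3 samples with pancreatic transcripts. Of 16 T cell markers, 8 were at background in all samples of both days. Cd3e, a chain of the T cell receptor complex, had 2.64, 2.13 and 2.17 on day 7 and 2.16, 2.17 and 2.18 on day 2. Cd4 had 3.40, 3.01 and 3.48 on day 7 and 3.42, 3.13 and 3.74 on day 2, and Foxp3, the regulatory T cell factor, had 2.27, 2.25 and 2.28 on day 7 and 2.29, 2.28 and 2.30 on day 2. None of these 3 genes differed by the test (adjusted p = 0.494, 0.747 and 0.477), and a change in Cd3e or Foxp3 below the background level could not have been seen. Cd4 was above that level in 3 of the 6 samples. Of the T cell markers 1, the granzyme gene Gzmb, was called at 1.57 (adjusted p = 0.0283), and this was lost without day 2 replicate 1 (adjusted p = 0.0605), day 2 replicate 2 (adjusted p = 0.0876), day 2 replicate 3 (adjusted p = 0.0709), day 7 replicate 1 (adjusted p = 0.0795) and day 7 replicate 2 (adjusted p = 0.0705). No member of the B cell and plasma cell list (14 measured) or of the mast cell and eosinophil list (14 measured) was called by limma, and 0 and 1 had an unadjusted p under 0.05. The mean level of the B cell and plasma cell list was 5.38 to 6.57 on day 7 and 5.62 to 5.76 on day 2.

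Matrix-degrading enzymes rose steeply. Mmp3, stromelysin of activated fibroblasts, was at 10.65, 13.14 and 9.86 on day 7 and 4.34, 4.98 and 4.80 on day 2. Mmp13, a collagenase, was at 10.66, 14.30 and 9.72 on day 7 and 4.79, 6.23 and 6.17 on day 2. For each, every day 7 sample exceeded every day 2 sample and replicate 2 of day 7 was the highest, with rises of 6.51 (SE 0.85, adjusted p = 0.00187) for Mmp3 and 5.83 (SE 0.95, adjusted p = 0.00564) for Mmp13. Adamts4, which cleaves proteoglycans, was at 7.96, 10.10 and 8.06 on day 7 and 3.04, 3.05 and 3.72 on day 2, where 2 of the 3 samples were at background, with a fitted difference of 5.43 (SE 0.53, adjusted p = 0.000522). Timp1, an inhibitor of matrix metalloproteinases and a STAT3 target, rose by 4.60 (SE 0.57, adjusted p = 0.00151), with 1 of the 3 day 2 samples at background. Of 17 measured matrix metalloproteinases and inhibitors 6 were higher and 0 lower, with a median of 1.39, the count lay between 6 and 9 when 1 sample was left out, and the median was 0.80 without day 7 replicate 2. Ereg, an EGF receptor ligand of wound-edge epithelium, rose by 4.26 (SE 0.56, adjusted p = 0.00187).

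Structural matrix genes moved less. Of 24 fibroblast and matrix genes 5 were higher and 0 lower, with a median of 0.88, and the count was 1 without day 2 replicate 1, 0 without day 2 replicate 2 or the 3 samples with pancreatic transcripts, and 9 without day 7 replicate 3. The list's mean was 10.30 and 10.31 in day 7 replicates 3 and 1 and 11.91 in replicate 2, against 9.66 to 10.01 on day 2, and its median was 0.41 without day 7 replicate 2. All 12 smooth muscle genes had a negative difference, with a median of -0.70, and 3 were called. That count was 7 without day 2 replicate 1, 0 without day 2 replicate 2, and 1 without day 2 replicate 3 or day 7 replicate 1. Their mean level was 11.52 to 12.06 on day 7 and 12.11 to 12.70 on day 2, and how much muscle each piece held was not measured in another way.

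**Figure D4:**
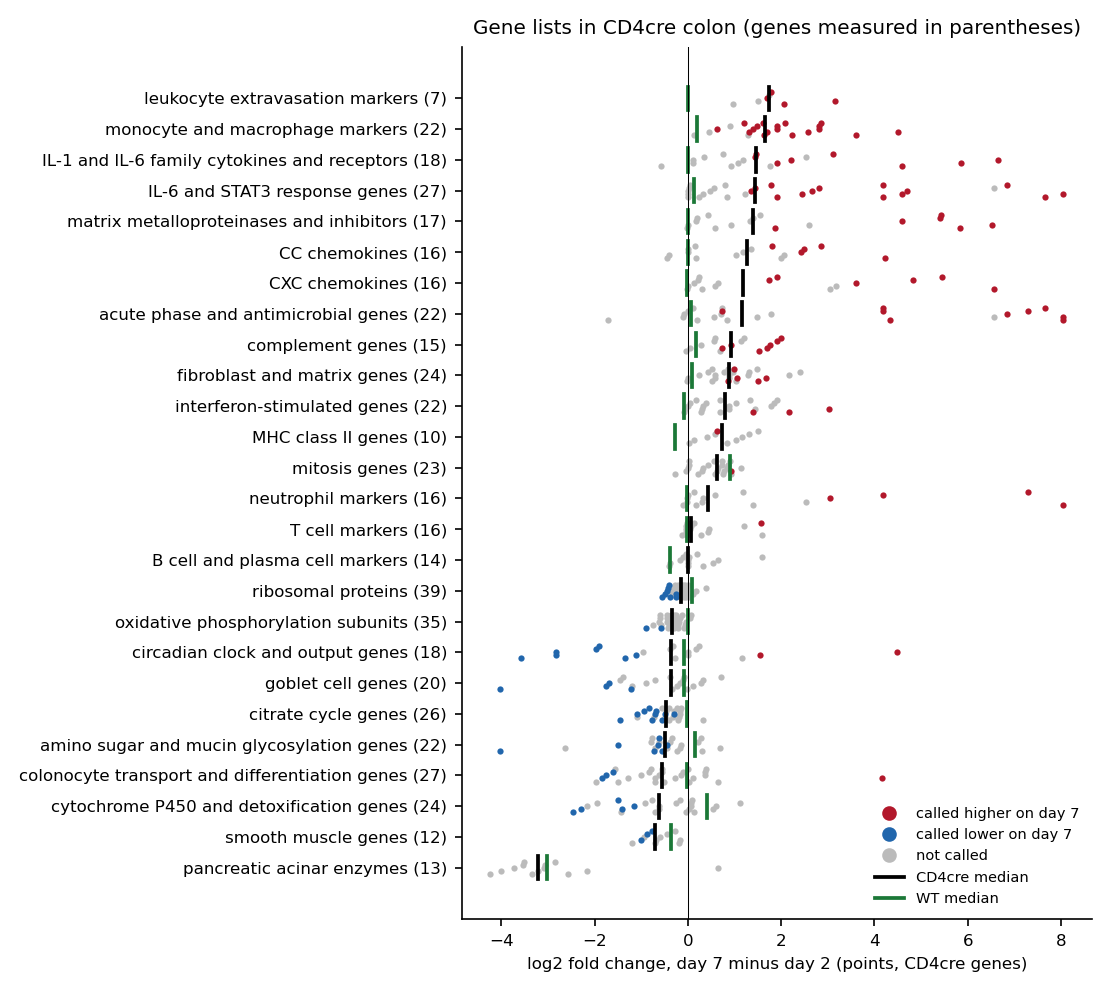
Log2 difference, day 7 minus day 2, of each measured member (points) of 26 gene lists in CD4cre colon, with the CD4cre median as a black bar and the WT median as a green bar. The macrophage, IL-1 and IL-6 family, STAT3 response and extravasation lists have CD4cre medians of 1.43 to 1.73, and the citrate cycle list has a median of -0.48.

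The falls were smaller and led by scattered genes. Smpx, which encodes a small protein of striated muscle, had 3.29, 3.29 and 5.18 on day 7 and 8.11, 8.18 and 8.11 on day 2. The groups did not overlap, 2 of the 3 day 7 samples were at background, and it fell by 4.21 log2 units (SE 0.46, adjusted p = 0.000856). Ceacam10, a secreted member of the carcinoembryonic antigen family, had 7.08, 8.77 and 9.90 on day 7 and 11.92, 11.77 and 11.93 on day 2. It fell by 3.29 log2 units (SE 0.65, adjusted p = 0.014), a call lost without the 3 samples with pancreatic transcripts (adjusted p = 0.0785). B3gnt6, the enzyme that makes the core 3 glycans of colonic mucin, was at 5.06, 4.24 and 7.95 on day 7 and 9.26, 10.05 and 10.04 on day 2. Replicate 3 of day 7 was the highest of its group, the groups did not overlap, the fall was 4.03 log2 units (SE 0.93, adjusted p = 0.0285), and the call was lost without day 2 replicate 2 (adjusted p = 0.0968), day 2 replicate 3 (adjusted p = 0.0809), day 7 replicate 1 (adjusted p = 0.0863) and day 7 replicate 2 (adjusted p = 0.0822). Rasd2, Clic6, Wfdc2, Aldh1a7, Ccn3 and Cyp2c68 completed the 10 largest falls together with Per3, with differences of -3.74 to -3.08, and each of these 6 calls was lost without day 2 replicate 1 (adjusted p = 0.054 to 0.0958) or day 2 replicate 2 (adjusted p = 0.0805 to 0.11). The calls of Clic6, Wfdc2, Ccn3 and Cyp2c68 were lost without day 7 replicate 1 as well (adjusted p = 0.0702 to 0.105), and that of Ccn3 without day 2 replicate 3 (adjusted p = 0.0822). Rasd2, which encodes a small G protein, had 1.72, 2.11 and 1.72 on day 7, all at background, and 5.57, 5.50 and 5.68 on day 2, and was at least 4.52-fold lower on day 7. Its call was lost without any of the 6 samples in turn (adjusted p = 0.0588 to 0.11), and it was the only named probe set called in the fit limited to those samples (adjusted p = 0.0187).

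Secretory and absorptive epithelium genes were lower in part. Of 20 goblet cell genes 4 were lower and 0 higher, with a median of -0.36. Ern2, the goblet cell sensor of unfolded mucin also called IRE1 beta, was at 8.30, 8.31 and 9.22 on day 7 and 10.59, 10.22 and 10.12 on day 2. Its groups did not overlap and it fell by 1.70 log2 units (SE 0.24, adjusted p = 0.00291). The mucin gene Muc2 and the trefoil factor Tff3 did not pass the test, with differences of -0.24 (SE 0.07, adjusted p = 0.088) and 0.10 (SE 0.19, adjusted p = 0.89). The goblet count was 2 without day 2 replicate 2 or 3, 7 without day 7 replicate 3 and 1 without the 3 samples with pancreatic transcripts, and the median was -0.55 without day 2 replicate 1. Of 27 colonocyte transport and differentiation genes 3 were lower and 1 higher, with a median of -0.56, and the lower count was 0 without day 2 replicate 1 or 2, 1 without day 2 replicate 3 or the 3 samples with pancreatic transcripts, and 5 without day 7 replicate 3. The 1 higher gene, Clca4b, rose by 4.16 (adjusted p = 0.009). It was the list's only call kept whichever of the 6 samples was left out, but was lost without the 3 samples with pancreatic transcripts (adjusted p = 0.0563). The chloride exchanger gene Slc26a3 had a difference of -1.98 (SE 0.58, adjusted p = 0.0706) by its brightest probe set. Its other probe sets differed by -2.28 and -2.85 (adjusted p = 0.053 and 0.0518) and, in a dim one that was called, by -2.83 (adjusted p = 0.00295). Prss8, a membrane protease that activates the epithelial sodium channel, fell by 1.66 log2 units (SE 0.18, adjusted p = 0.000856), and Ocln, the tight junction protein occludin, by 0.72 log2 units (SE 0.12, adjusted p = 0.00598). Levels of Ocln averaged 8.38 on day 7 and 9.11 on day 2, without overlap. Of 18 tight junction genes, however, 1 was lower and 1 higher, with a median of -0.06. The claudin gene Cldn1 rose by 1.26 (adjusted p = 0.0255). Its call was lost without day 2 replicate 1 (adjusted p = 0.0722), day 2 replicate 2 (adjusted p = 0.0605) or day 7 replicate 2 (adjusted p = 0.0602).

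Of 24 cytochrome P450 and detoxification genes 5 were lower and 0 higher, with a median of -0.62 that was -0.08 without day 7 replicate 2 and -1.03 without day 7 replicate 3. The count was 3 without any 1 of the day 2 samples or day 7 replicate 1, and 1 without the 3 samples with pancreatic transcripts. Cyp2s1, a P450 of gut and airway epithelium, fell by 1.41 log2 units (SE 0.24, adjusted p = 0.00708). The glutathione transferase genes Gstm1 and Gstt1 fell by 1.51 log2 units (SE 0.27, adjusted p = 0.00937) and 1.16 log2 units (SE 0.21, adjusted p = 0.0101), and both calls were lost without the 3 samples with pancreatic transcripts (adjusted p = 0.0665 and 0.0624). The list's mean level was 7.95 in day 7 replicate 2, against 9.20 and 9.96 in replicates 1 and 3 and 9.47 to 9.82 on day 2.

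Genes of the citrate cycle were lower. Of 26 measured, 10 were lower and 0 higher, and 25 had a negative difference, with a median of -0.48. Cs, citrate synthase, the entry enzyme of the cycle, was at 12.99, 13.04 and 13.23 on day 7 and 13.77, 13.85 and 13.76 on day 2. Dld, the dehydrogenase subunit shared by the pyruvate and oxoglutarate complexes, was at 10.51, 10.10 and 10.73 on day 7 and 11.05, 11.36 and 11.43 on day 2. Neither gene's groups overlapped, and the falls were 0.71 log2 units (SE 0.10, adjusted p = 0.00342) for Cs and 0.83 log2 units (SE 0.14, adjusted p = 0.00599) for Dld. Dlat, the acetyl transferase of the pyruvate complex, fell by 0.77 log2 units (SE 0.13, adjusted p = 0.00602). Acss2, which makes acetyl-CoA from acetate, fell by 1.54 log2 units (SE 0.23, adjusted p = 0.00364). The list's count was 5 without day 2 replicate 2, 6 without day 2 replicate 3, 14 without day 7 replicate 3 and 3 without the 3 samples with pancreatic transcripts, and its median was -0.30 without day 7 replicate 2. Of 35 oxidative phosphorylation subunits 2 were lower and 0 higher, with a median of -0.34. That is 5.71% lower, close to the 4.27% over all genes. This count was 0 without day 2 replicate 2, day 2 replicate 3 or day 7 replicate 2 and 12 without day 7 replicate 3. The median of the oxidative phosphorylation list was -0.15 without day 7 replicate 2.

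Of 39 ribosomal protein genes 8 were lower and 0 higher, with a median of only -0.14 that was -0.05 after cyclic loess between arrays. Rpl37 fell by 0.49 log2 units (SE 0.09, adjusted p = 0.00777). Its levels of 10.73, 10.71 and 10.86 on day 7 did not overlap the levels of 11.23, 11.16 and 11.38 on day 2. The list's count was 5, 3 and 4 without day 2 replicates 1, 2 and 3 in turn, and 5, 4 and 20 without day 7 replicates 1, 2 and 3. Its median was -0.08 without day 7 replicate 2 and -0.25 without day 7 replicate 3, and its count was 3 without the 3 samples with pancreatic transcripts. Of 23 apoptosis genes 3 were higher and 0 lower, with a median of 0.19, and this count was 0 without day 2 replicate 2, 6 without day 7 replicate 3 and 1 without the 3 samples with pancreatic transcripts. The median was 0.30 without day 2 replicate 3 and 0.35 without day 7 replicate 3. The death receptor gene Fas was 0.65 higher (adjusted p = 0.0136), and its call was lost without day 2 replicate 2 (adjusted p = 0.0611). Glycolysis and hypoxia genes had 2 higher and 3 lower of 23, with a median of 0.02. The counts were 1 and 2 without day 2 replicate 2 and 0 and 2 without the 3 samples with pancreatic transcripts. Pfkfb4, a regulator of fructose 2,6-bisphosphate, fell by 0.80 log2 units (SE 0.13, adjusted p = 0.00548). Pfkfb3 and Hk2 rose, by 2.14 and 1.63 (adjusted p = 0.0114 and 0.0261), and both calls were lost without the 3 samples with pancreatic transcripts (adjusted p = 0.0644 and 0.106). Of 22 amino sugar and mucin glycosylation genes 7 were lower and 0 higher, with a median of -0.50, a count that was 1 and 3 without day 2 replicates 2 and 3 2 and 4 without day 7 replicates 1 and 2, and 0 without the 3 samples with pancreatic transcripts.

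Of 18 measured circadian clock and output genes 7 were lower and 2 higher, with a median of -0.36 that was -0.55 without day 2 replicate 1, and the count lower was 7 whichever of the 6 samples was left out. Per3, a repressor of the clock loop, had 3.40, 3.34 and 3.35 on day 7 and 7.58, 7.11 and 6.10 on day 2. All 3 day 7 samples were at background, so that it was at least 11.5-fold lower (adjusted p = 0.000522). This probe set was the only called one of the 6 for Per3. Before DSS it was at 3.63, 4.71 and 3.68 in CD4cre colon. Dbp, the transcription factor that reads D-boxes and is a direct output of the clock, was at 8.85, 8.63 and 9.26 on day 7 and 11.99, 11.47 and 11.77 on day 2. Per2, the relative of Per3, was at 6.20, 6.01 and 5.40 on day 7 and 8.88, 8.91 and 8.30 on day 2. The day 7 and day 2 groups overlapped for neither, and the falls were 2.83 log2 units (SE 0.34, adjusted p = 0.0014) for Dbp and 2.83 log2 units (SE 0.32, adjusted p = 0.000938) for Per2. The related factors Tef and Hlf fell by 1.98 log2 units (SE 0.26, adjusted p = 0.00186) and 1.91 log2 units (SE 0.26, adjusted p = 0.00228), and the repressor Cry2 fell by 1.35 log2 units (SE 0.20, adjusted p = 0.00347).

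Nfil3, a repressor at the same D-boxes and a factor of innate lymphoid cells and macrophages, moved the other way. It was at 7.15, 8.75 and 7.00 on day 7 and 2.87, 2.93 and 3.66 on day 2, without overlap, 2 of the day 2 samples were at background, and the fitted difference was 4.48 (SE 0.46, adjusted p = 0.000658). The activator Arntl, the BMAL1 gene, differed by 1.16 (SE 0.35, adjusted p = 0.0845). The hour at which tissue was taken is not given in the sources used here, so a difference in the hour and a difference between the days cannot be told apart for these genes.

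Proliferation genes showed little that passed the test. Of 23 mitosis genes 1 was higher, with a median of 0.62 that was 0.23 without day 2 replicate 1 and 0.36 without day 7 replicate 1. The count was 3 without day 7 replicate 2 and 0 without any 1 of day 2 replicates 1 and 2 and day 7 replicates 1 and 3. Mki67, the marker of cycling cells, differed by 0.76 (SE 0.34, adjusted p = 0.248). Of 24 DNA replication genes 1, the helicase subunit Mcm4, was called. It rose by 0.82 (SE 0.14, adjusted p = 0.00771), and the call was lost without the 3 samples with pancreatic transcripts (adjusted p = 0.0509). No crypt stem cell and Wnt target gene of 19 was called by limma, and 6 had an unadjusted p under 0.05. Among them Lgr5, the stem cell receptor, had 2.74, 2.69 and 4.11 on day 7 and 5.07, 5.12 and 4.89 on day 2, a difference of -1.85 (SE 0.59, adjusted p = 0.0953).

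The same contrast in WT colon, 2 samples on day 7 against 3 on day 2, gave 110 called probe sets, 63 higher and 47 lower, 0.244% of those tested. Because WT had fewer samples, the counts of the genotypes are not compared. The difference between the genotypes' changes was tested in the same fit and was called for 103 probe sets, 0.229%, of which 36 were higher in CD4cre and 67 lower. Of these 103, 68 were called in CD4cre too, 32 higher and 36 lower. Of the 103 probe sets, 13 were at or under background in every sample compared. The count was 30 without CD4cre day 2 replicate 2, 284 without CD4cre day 7 replicate 2, 1324 without CD4cre day 7 replicate 3, 36 and 55 without WT day 2 replicates 1 and 2, and 173 and 209 without WT day 7 replicates 1 and 2. With the replicate number as a block it was 36.

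Il6 led the differences. In WT colon it was at background throughout, with 2.15 and 2.13 on day 7 and 2.12, 2.15 and 2.13 on day 2, against the 8.42, 9.85 and 8.01 of CD4cre day 7. Its rise was larger in CD4cre by 6.64 (SE 0.49, adjusted p = 0.000144), and this call held in all 21 other settings run. Fcgr4 had 2.54 and 3.41 on day 7 and 2.52, 2.11 and 2.11 on day 2 in WT colon. Its rise was larger in CD4cre by 3.78 (SE 0.37, adjusted p = 0.00182), a call lost in the fit limited to the groups compared, and all 3 CD4cre samples of day 7 exceeded both of WT. S100a9 rose in WT colon as well, by 3.17 (adjusted p = 0.0419), with 5.71 and 5.89 on day 7 and 2.60, 2.65 and 2.63 on day 2. The rise in CD4cre was larger by 4.88 (SE 0.74, adjusted p = 0.0307), a call lost in 9 of the 21 other settings. A probe set of Atpaf1, an assembly factor of the mitochondrial ATP synthase, went opposite ways. It fell by 1.35 log2 units (SE 0.11, adjusted p = 0.000304) in CD4cre colon, with 6.24, 5.82 and 5.96 on day 7 and 7.52, 7.19 and 7.34 on day 2. In WT colon it had 7.23 and 7.12 on day 7 and 6.36, 6.25 and 6.42 on day 2 and rose by 0.83 (adjusted p = 0.0295). The difference of -2.18 (SE 0.17, adjusted p = 0.000265) was called in the same fits as that of Il6. A brighter Atpaf1 probe set fell by 0.60 log2 units in CD4cre colon (adjusted p = 0.00325) but was not called in the difference test. Per2 fell in WT colon too, with a difference of -2.32 (adjusted p = 0.0283), and the genotypes' changes in Per2 differed by -0.51 (SE 0.47, adjusted p = 0.804). The called Per3 probe set had a WT difference of -0.46 (adjusted p = 0.816). Its genotypes' changes differed by -3.11 (SE 0.52, adjusted p = 0.0481), a call lost in 13 of the 21 other settings.

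For the gene lists, the WT medians were 0.19 for macrophage markers, 0.00 for the IL-1 and IL-6 family, 0.13 for STAT3 response genes and -0.03 for the citrate cycle, beside the CD4cre medians of 1.66, 1.45, 1.43 and -0.48. The difference test called 1 of 22, 1 of 18, 3 of 27 and 0 of 26 of their members. WT day 2 samples had Hox scores of 0.77 to 1.13 and WT day 7 samples of -1.49 and -1.36, a wider gap between the days than in CD4cre, and with that score as a covariate the difference was called for 26 probe sets and the CD4cre change for 3585. In that fit the CD4cre counts were 7 of 7 for the extravasation markers and 12 of 24 for fibroblast and matrix genes, all higher, and 16 of 26 for the citrate cycle, 14 of 35 for oxidative phosphorylation and 11 of 24 for the detoxification list, all lower, the last with a median of -1.49.

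**Figure D5:**
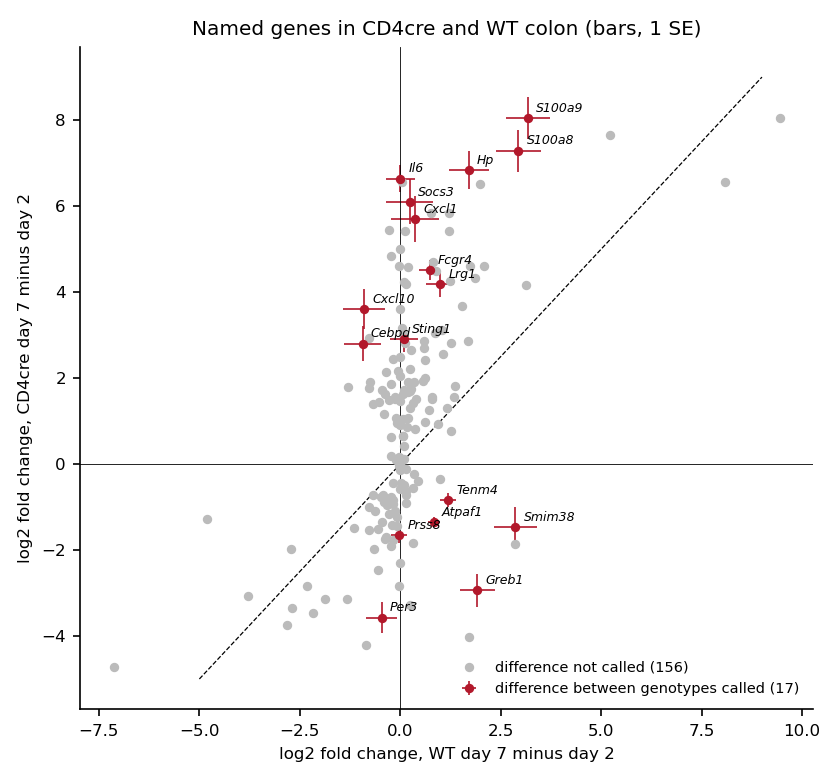
Log2 difference, day 7 minus day 2, in CD4cre colon against the same difference in WT colon for 173 named probe sets, with bars of 1 SE on the coloured points and a dashed line of equal change. The 17 probe sets whose difference between genotypes was called are coloured, and Il6 lies at 6.64 in CD4cre and 0.00 in WT. The naming rules took 10 genes because this same test called them, so the coloured share does not describe probe sets at large.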

How the data were processed

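Total RNA of colon, named colonic mucosa in the paper, was hybridised to Affymetrix mouse whole-genome arrays. The deposited values are log2 levels per probe set, made by the authors with gcRMA in R 2.9.0, which corrects background, normalizes and summarizes probes. As in the study, limma was used (limma 3.58.1 in R 4.3.3): 6 group means over 17 arrays, empirical Bayes moderation, Benjamini-Hochberg over 45037 probe sets, calls at an adjusted p under 0.05. Differences are in log2 units. The fit was tested on simulated data. Folds against a group at background are lower bounds against a level of 3.407. Of the probe sets 34945 had 1 gene, 932 several and 9160 none named, and lists used the brightest probe set of each of 18193 genes. All columns had a sample.

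Named genes were the 10 largest non-overlapping rises and falls, up to 3 called members with the largest change per list, the genes the paper names and the 5 largest differences between genotypes each way. A further 69 probe sets were named after their values were seen: all others in the text. The members and lists were chosen with earlier results of these data known. Alternatives were fewer samples, other normalizations, weights, filters, a replicate block and a Hox score covariate, and, chosen after seeing the data, leaving out day 2 replicate 1 and day 7 replicate 2 together and all alternatives of the WT comparison. Same-numbered samples of the 2 groups deviated together with a correlation of -0.0532 to 0.11. The numbers were not taken as pairs, and what they stand for is not given in the sources used here. The number of arrays limits the precision. Gene symbols came from GEO's platform annotation, and promoters from RefSeq.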

Additional observations from a re-analysis of the deposited data

Results flagged for a closer look

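For 17 named probe sets above background in at least 1 sample, the change between day 7 and day 2 differed between CD4cre and WT colon by the test of the difference itself (limma, adjusted over 45037 probe sets). The naming rules took 10 genes because this same test called them, so the number 17 reflects that choice in part. Values are the CD4cre change minus the WT change in log2 units, from 3 CD4cre samples a day and 2 and 3 WT samples on days 7 and 2.

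The change was larger in CD4cre for Il6 (6.64, adjusted p = 0.000144), Socs3 (5.86, 0.0184), Cxcl1 (5.33, 0.0279), Hp (5.14, 0.0175), S100a9 (4.88, 0.0307), Cxcl10 (4.51, 0.032), S100a8 (4.35, 0.0481), Fcgr4 (3.78, 0.00182), Cebpd (3.74, 0.0423), Lrg1 (3.19, 0.0245) and Sting1 (2.82, 0.0413). Only 1 of the Socs3 probe sets and 1 of the Cxcl1 probe sets is meant here, the other named probe set of each missing the threshold at differences of 3.87 and 5.72 (adjusted p = 0.0982 and 0.0623).

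The change was lower in CD4cre for Prss8 (-1.64, adjusted p = 0.0481), Tenm4 (-2.04, 0.0108), Atpaf1 (-2.18, 0.000265), Per3 (-3.11, 0.0481), Smim38 (-4.33, 0.0463) and Greb1 (-4.85, 0.00932). Greb1, an oestrogen-induced gene, had 3.71, 3.02 and 3.03 on day 7 and 6.15, 6.28 and 6.13 on day 2 in CD4cre colon, and 5.61 and 5.34 on day 7 and 3.42, 3.44 and 3.81 on day 2 in WT colon. It fell by 2.94 log2 units (SE 0.39, adjusted p = 0.00187) in CD4cre colon, with a WT difference of 1.92 (adjusted p = 0.113). Smim38 was called in neither genotype alone (differences of -1.47 in CD4cre and 2.86 in WT). Tenm4, a teneurin, was at 2.51, 2.57 and 2.58 on day 7 and 3.23, 3.43 and 3.53 on day 2 in CD4cre colon, and at 3.71 and 4.03 on day 7 and 2.61, 2.82 and 2.61 on day 2 in WT colon, all close to background. The calls for Il6, Atpaf1, Tenm4 and Greb1 held in all 21 other settings run. Of those 21, Fcgr4 was lost in 1, Hp and Socs3 in 3, Lrg1 in 5, Cxcl10 in 6, Cxcl1 in 8, S100a9 in 9, Cebpd in 11, S100a8, Sting1 and Smim38 in 12, and Prss8 and Per3 in 13. Sting1, Cebpd, Atpaf1, Greb1, Tenm4, Smim38 and Per3 have further probe sets, none of which was called in this test. Causes of these differences were not tested.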

How the results depend on the processing

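No called gene named here changed direction, but some differences not called as reported did. Among them were Pparg (-1.15 to 0.40), Vil1 (-0.35 to 0.11) and Tff3 (-0.26 to 0.31), of which Pparg was called lower with the Hox score as a covariate. The CD4cre count of 2439 was 10 in a fit limited to the groups compared, 426 with the CD4cre samples only, 3852 with arrays centred on their medians, 5118 with array weights, 1358 without the 3 samples with pancreatic transcripts and 1054 to 4455 when 1 sample was left out. It was 2148 with a replicate block, which shares 1970 probe sets. The WT count of 110 was 713 limited to the groups compared, 947 with array weights, 5 with the Hox score and 48 to 286 with 1 sample left out. The count of differences between genotypes, 103, was 29 limited to the groups compared, 51 with trend and robust moderation, 165 centred, 49 after cyclic loess, 902 with array weights, 36 with the replicate block, 61 without the pancreatic samples, 26 with the Hox score, 379 without day 2 replicate 1 and day 7 replicate 2 together, and 30 to 1324 with 1 sample left out. The causes were not tested.

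For 15 of 40 pairs of same-numbered samples the correlation of deviations was over 0.1, and the 40 ranged from -0.45 to 0.51. Differently numbered samples were not compared, so whether the numbers mark a shared source of spread was not tested. The numbers were not taken as pairs in the main fit. The block lost 17 of the 141 calls among named probe sets. The fit limited to the groups compared lost 140, the CD4cre samples alone 94, the set without pancreatic samples 65 and the Hox score 10. With 3 samples a group and a spread of 0.513 on day 7, against 0.386 on day 2, small changes could not be shown, and genes at background on both days have no measured change. CD4cre day 7 had the largest spread of all groups, the others lying between 0.218 (WT day 7) and 0.41 (CD4cre day 0). The fit over 17 arrays shares 1 spread per probe set across groups, so its p-values for this contrast may be too small.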
